A study of Macaca mulatta with 6 samples.

Results

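The genes described here are 38 genes of the cell cycle and of DNA replication, chosen by name: cyclins and their kinases, the RB and E2F genes, the CDK inhibitors, the replicative helicase and the sliding clamp, mitotic kinases and spindle checkpoint genes, and the checkpoint kinases CHEK1 and WEE1. They were found by the gene symbol in the deposited tables, and 35 of the 38 had a row among 30246 gene rows. CDKN1C, CDKN2A and MKI67 had no row under these symbols and were not analysed here. All 35 passed the filter on low values, as did 13685 rows in all. The CDK inhibitor CDKN2B passed it only through the male naive libraries. CCND2 carries an identifier that the gene name table pairs with another symbol, TIGAR, so its values are uncertain. The rows of MCM2, MCM6 and PLK1 lie on other chromosomes than these genes do in the RefSeq gene table of another assembly, T2T-MMU8v2.0, so their identity rests on the deposited symbol and the gene name table, and their values are uncertain too.

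The series measured RNA in 6 cultures of rhesus monkey (Macaca mulatta) induced pluripotent stem cells (iPSCs), which are body cells reprogrammed to an embryonic, self-renewing state. There were 2 male naive lines, 2 female naive lines and 2 male primed lines, and no female primed line. Naive lines grew in a medium labelled 6SM. It held 15% KnockOut serum replacement, 4 ng/ml bFGF, 10 ng/ml human LIF and 4 kinase inhibitors: 3 μM CHIR99021 (against GSK3), 0.5 μM PD0325901 (against MEK), 10 μM SB203580 (against p38) and 10 μM SP600125 (against JNK). Primed lines grew in hESM, which held 20% serum replacement and bFGF. In the labels, feeder cells were removed and colonies collected before RNA extraction, and the labels do not tie lines to animals. The p-values below therefore measure the spread between these cultures, which may be technical. Libraries are called by group and number (male naive 1 and 2, female naive 1 and 2, primed 1 and 2), and values in a sentence follow that order.

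A dividing cell passes from G1, where D-type cyclins with CDK4 and CDK6 phosphorylate RB and release E2F, through S phase, where licensed origins fire, to G2 and mitosis, which cyclin B with CDK1 drives. WEE1 holds CDK1 inactive by phosphorylating it, and the CDC25 phosphatases remove that phosphate. Pluripotent cells are known for a short G1 and for high levels of replication genes. MEK and ERK signalling, which PD0325901 blocks, is a known inducer of cyclin D1.

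Levels are FPKM, fragments per kilobase of transcript normalised to sequencing depth, which can be compared between genes because they are per length. Differences are on the log2(FPKM + 1) scale, from limma fitted to all tested rows with 3 residual degrees of freedom. A gene was called when its Benjamini-Hochberg adjusted p over 13685 rows was under 0.05. The depth estimated from the deposited bounds was 1754857 and 1478692 effective fragments in the male naive libraries and 7607125 to 10013491 in the other 4. Sex and this depth difference cannot be told apart among the naive libraries. In naive against primed lines 6.72% of all rows were called higher and 4.59% lower. Of the pluripotency marker list, 7 of 11 tested genes were higher in naive lines by this test and 0 were lower. Of the neural list, 3 of 5 were lower and 0 higher, of the mesoderm list 2 of 4 were higher and 0 lower, and of the endoderm and trophoblast lists 0 of 6 and 0 of 3 were called. Of the fibroblast and feeder list, 0 of 11 were higher and 1, VIM, was lower. The summed FPKM of the fibroblast list was 584 and 474 for the male naive pair, 417 and 551 for the female naive pair and 675 and 793 for the primed pair. VIM alone made up most of this sum in both primed libraries, so the sum hides differences in the other markers. Those between the primed lines are given below.

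Most of the cell cycle genes had overlapping levels in naive and primed lines, and WEE1 was the one that passed the test. Of the 35, 1 rose in naive against primed lines and 0 fell, which is 2.86% called, where 11.3% of all tested rows were called (6.72% higher and 4.59% lower). At an unadjusted p under 0.05, 6 of 35 passed, 5 higher and 1 lower, against 30.9% of all rows (17.2% higher and 13.8% lower). The median difference was 0.07, against 0.03 over all rows. For 30 of the 35 genes, the 95% interval of the difference lay within 1 log2 unit either side of 0, which held for 61.5% of all rows. The values of the 4 naive libraries did not overlap those of the 2 primed libraries for 7 genes, 6 higher and 1 lower, where 34.8% of all rows did not overlap (18.9% higher and 15.9% lower). The share of members called is below that of all rows, and the difference between these shares was not tested.

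**Figure D1:**
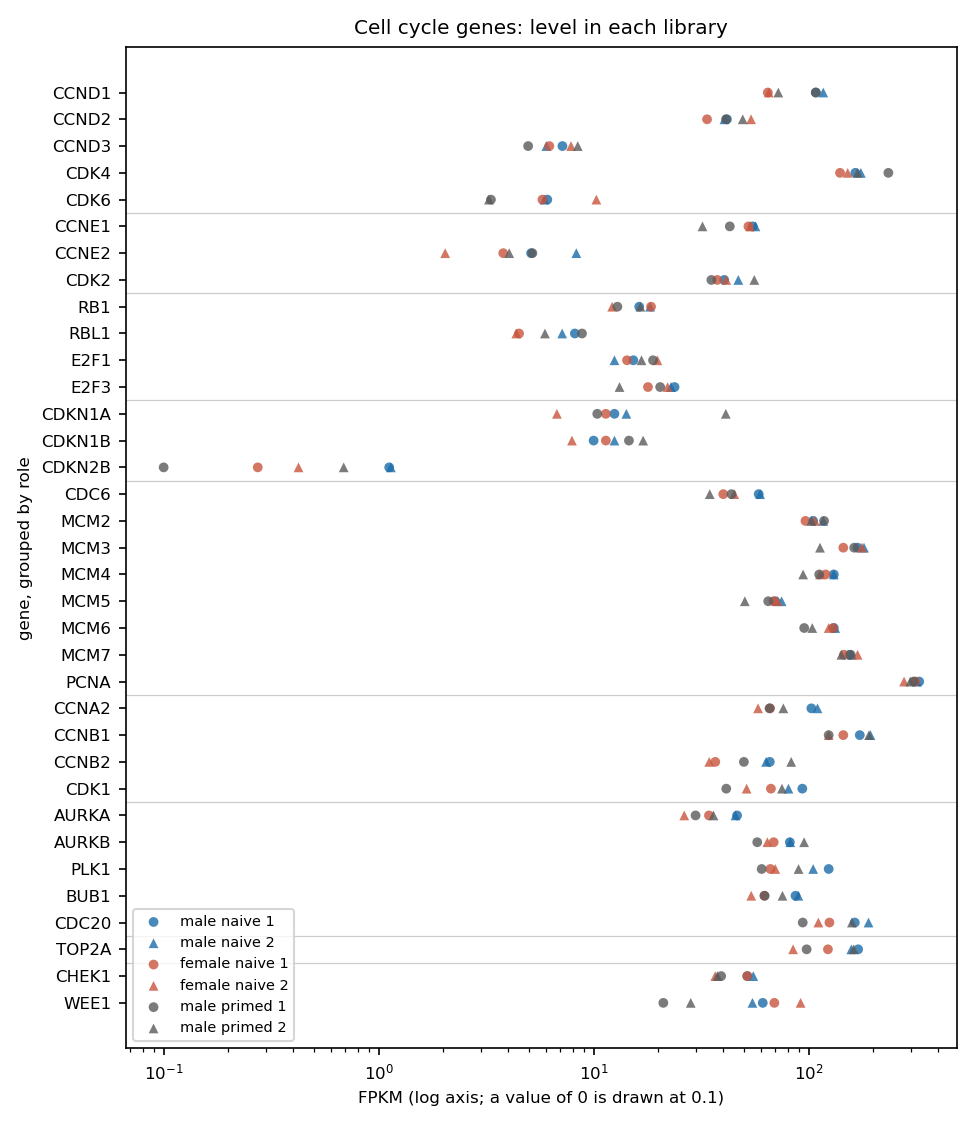
FPKM (log axis) of the 35 genes in the 6 libraries, grouped by role, with circles for library 1 and triangles for library 2 of each group. Most genes have overlapping symbols, WEE1 has its 4 naive libraries between 54.8 and 91.8 above the primed 21.1 and 28.3, and the primed 2 triangle of CDKN1A stands at 41.2.

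WEE1, the kinase that holds CDK1 inactive before mitosis, was the gene that rose. Its row (ENSMMUG00000008759, chromosome 14, 62361555 to 62375841 in the coordinates of the files, whose build is not given in the sources used here) had 61.2 and 54.8 FPKM in the male naive lines, 69.3 and 91.8 in the female naive lines and 21.1 and 28.3 in the primed lines. All 4 naive libraries were above both primed ones. The difference was 1.44 ± 0.18 (SE, 95% interval 1.01 to 1.87, limma adjusted p = 0.0106), a 2.71-fold higher level. Within males it was 1.21 ± 0.20 (SE, limma adjusted p = 0.0296), and female against male naive lines differed by 0.45 (limma adjusted p = 0.268). At least 234 effective fragments stood behind each value. Without primed 1 the difference was 1.24 and the call was lost (limma adjusted p = 0.0563); the call held without each of the other 5 libraries. The call within males was lost without each library other than primed 2 (limma adjusted p from 0.0553 to 0.153).

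CHEK1, the kinase that signals stalled replication forks, is the other checkpoint kinase listed. It had 51.9 and 55.3, then 51.8 and 36.8, then 39.2 and 37.7 FPKM. Female naive 2 lay below both primed libraries, so the groups overlapped. Its difference of 0.32 (95% interval -0.06 to 0.71) did not pass the test (limma adjusted p = 0.223).

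The phosphatase CDC25B, which opposes WEE1 and is among the other mitosis genes listed below, went the opposite way. It had 15.3 and 13.8, then 8.38 and 11.3, then 25.8 and 19.2 FPKM. Its difference was -0.85 ± 0.19 (SE, limma adjusted p = 0.0428), and the groups did not overlap. The FPKM ratio of WEE1 to CDC25B was 4.01 and 3.98, then 8.27 and 8.13, then 0.817 and 1.47. The ratio adds no separate evidence, since both genes had separate naive and primed values in opposite directions. CDC25A and CDC25C, the other CDC25 phosphatases, differed by 0.34 and 0.03 and were not called (limma adjusted p = 0.186 and 0.933); the CDC25C value was -0.07, -0.01 and -0.01 under upper-quartile scaling, median-of-ratios scaling and quantile normalization. PKMYT1, a kinase related to WEE1, differed by 0.27 (limma adjusted p = 0.402). These 3 are named for their relation to WEE1 and CDC25B, after their values were seen. The CDC25B call was lost without each single library (limma adjusted p from 0.0562 to 0.165).

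**Figure D2:**
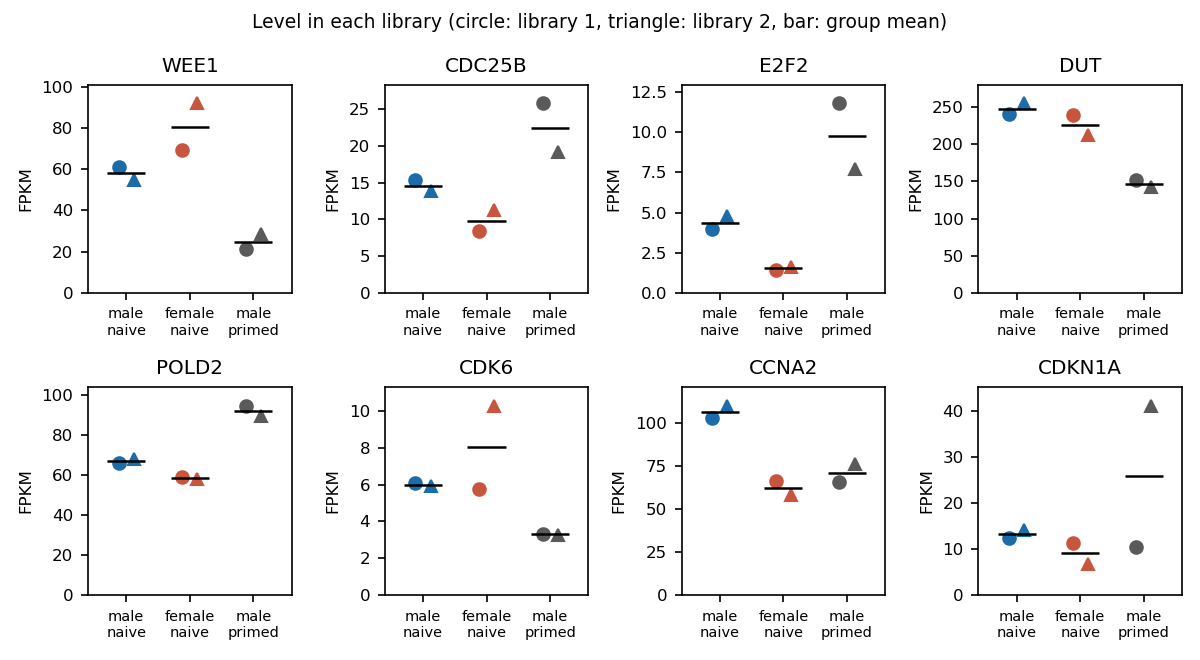
FPKM of WEE1, CDC25B, E2F2, DUT, POLD2, CDK6, CCNA2 and CDKN1A in each library, with a bar at each group mean. WEE1, DUT and CDK6 have every naive library above both primed ones, CDC25B, E2F2 and POLD2 have every naive library below them, CCNA2 has the male naive pair, 103 and 110, above the other 4 libraries, and CDKN1A has primed 2, 41.2, above the other 5.

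The G1 cyclins and their kinases gave 0 calls of 5 in naive against primed lines. CCND1, cyclin D1, had 108 and 117, then 64.6 and 65.3, then 108 and 72.3 FPKM. The naive groups lay either side of the primed mean, and the naive difference was -0.04 (95% interval -0.46 to 0.37). Female against male naive lines differed by -0.78 ± 0.20 (SE), which did not pass over all rows (limma adjusted p = 0.093). CCND2 had 41.7, 40.6, 33.7, 54, 41.3 and 49.4 FPKM, and CCND3 had 7.16, 6.03, 6.22, 7.85, 4.96 and 8.44. Both overlapped across the groups, and their differences of -0.11 and 0.05 were not called (limma adjusted p = 0.758 and 0.905). The FPKM ratio of CCND1 to CCND2 was 2.6 and 2.87 in the male naive lines and 1.92 and 1.21 in the female naive lines, with 2.6 and 1.46 in the primed lines.

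CDK4 was the more abundant of the D-cyclin kinases in every library. It had 165, 175, 140, 152, 235 and 169 FPKM. Primed 1 was the highest and primed 2 lay among the naive values. Its difference of -0.34 (95% interval -0.71 to 0.02) was not called (limma adjusted p = 0.185), but without primed 2 it was -0.58 and was called (limma adjusted p = 0.0473). CDK6, which shares its partners, had 6.09 and 5.91, then 5.78 and 10.3, then 3.33 and 3.26 FPKM. All naive libraries were above both primed ones, and female naive 2 was the highest. The difference of 0.87 ± 0.25 (SE, 95% interval 0.27 to 1.46) missed the threshold (limma adjusted p = 0.0737), with 27 to 33 effective fragments behind the male naive values. The FPKM ratio of CDK4 to CDK6 was 27, 29.7, 24.2, 14.7, 70.5 and 52, so it did not overlap between naive and primed libraries. This ratio adds no separate evidence, since the CDK6 values alone did not overlap, and neither gene was called with all libraries.

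Of the genes of the G1 to S transition, CCNE1, cyclin E1, which activates CDK2, had 55 and 56.6, then 52.5 and 53.4, then 43 and 32.1 FPKM. The 4 naive values lay close together and above both primed ones. Its difference of 0.54 ± 0.14 (SE) was not called (limma adjusted p = 0.0637). CCNE2 was lower, at 5.12, 8.31, 3.8, 2.04, 5.19 and 4.05 FPKM, and differed by -0.06. CDK2 had 40.5, 47.1, 37.6, 41.4, 35.3 and 55.9 FPKM and differed by -0.10. The lowest and the highest CDK2 value were both primed. In male naive 1 and 2, 21.6 and 18.2 effective fragments stood behind CCNE2 and 33.6 and 17.4 behind CDK2. Cyclin E1 exceeded cyclin E2 in every library, from 6.82 times in male naive 2 to 26.2 times in female naive 2.

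The RB and E2F genes gave 0 calls of 4, with 0 at an unadjusted p under 0.05. RB1, the retinoblastoma gene, had 16.3, 18.3, 18.5, 12.2, 12.9 and 16.5 FPKM, and its relative RBL1 (p107) had 8.18, 7.14, 4.5, 4.37, 8.83 and 5.94. The RB1 groups overlapped fully. RBL1 was lower in both female naive libraries than in the other 4. E2F1 had 15.3, 12.5, 14.3, 19.8, 18.9 and 16.7 FPKM, and E2F3 had 23.8, 22.9, 17.9, 22.1, 20.4 and 13.2. These are transcriptional activators of S-phase genes. Their differences were -0.20 (95% interval -0.65 to 0.24) and 0.37 (-0.12 to 0.86), with limma adjusted p = 0.502 and 0.266.

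E2F2, another activating E2F, which stands in the list of other G1 genes, fell in naive lines. It had 3.96 and 4.76, then 1.44 and 1.6, then 11.8 and 7.73 FPKM. The groups did not overlap, and female naive libraries were the lowest. The difference was -1.53 ± 0.23 (SE, 95% interval -2.09 to -0.97, limma adjusted p = 0.017), with 17.2 and 15.9 effective fragments behind the male naive values. Without any 1 library other than primed 2 it was not called (limma adjusted p from 0.0583 to 0.0743).

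The CDK inhibitors were at 41.2 FPKM or less. CDKN1A (p21), a CDK inhibitor that halts the cycle after DNA damage, had 12.5 and 14.2, then 11.4 and 6.75, then 10.4 and 41.2 FPKM. Primed 2 was the highest and primed 1 lay among the naive values. The difference of -0.89 (95% interval -2.13 to 0.35, limma adjusted p = 0.289) turned to 0.05 without primed 2. CDKN1B (p27), which restrains cyclin E with CDK2, had 10 and 12.5, then 11.4 and 7.93, then 14.6 and 17 FPKM. All naive values were below both primed ones, and the difference of -0.56 ± 0.20 (SE) was not called (limma adjusted p = 0.118). CDKN2B (p15), an inhibitor of CDK4 and CDK6, had 1.12 and 1.14, then 0.274 and 0.424 FPKM, was listed at 0 in primed 1 and had 0.688 in primed 2. At most 19 effective fragments stood behind any of its values, and no difference was detectable at this depth.

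The replication genes were among the most abundant of the 35. PCNA, the sliding clamp that holds the polymerases on DNA, had 327, 319, 313, 278, 308 and 297 FPKM, above 97.8% of tested rows by its mean. Its 6 values lay close together, and its difference was 0.03 (95% interval -0.21 to 0.27). Of the 6 measured subunits of the MCM2-7 helicase, the row named MCM6, whose identity is uncertain, had the largest difference. MCM6 had 131 and 133, then 130 and 124, then 95.4 and 104 FPKM, with no overlap and a difference of 0.38 ± 0.10 (SE) that was not called (limma adjusted p = 0.0598). MCM4 had 131, 131, 120, 113, 112 and 94.3 FPKM, and MCM5 had 70.1, 74.9, 68.7, 71.6, 64.9 and 50.5. Both also had no overlap between naive and primed libraries, with differences of 0.26 and 0.31 (limma adjusted p = 0.178 and 0.175). MCM2 had 105, 117, 96.7, 107, 118 and 103 FPKM, MCM3 had 169, 181, 145, 177, 163 and 113, and MCM7 had 155, 159, 146, 169, 157 and 142. Their groups overlapped, and their differences were -0.05, 0.30 and 0.07. CDC6, which loads the helicase onto origins, had 58.6 and 59.5, then 40.1 and 45.1, then 43.8 and 34.7 FPKM. Both male naive libraries were the highest, and its difference of 0.35 was not called (limma adjusted p = 0.14).

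Of these 8 replication genes, 7 had a positive difference in naive lines, 2 at an unadjusted p under 0.05 (17.2% of all rows were higher at that level), and 0 were called. The median of the 8 was 0.28, and all 8 intervals lay within 1 log2 unit of 0. The number positive was 5 of 8 with upper-quartile scaling (median 0.18) and with quantile normalization (median 0.09), and 6 of 8 with median-of-ratios scaling (median 0.24). Without primed 2 the median was 0.09.

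**Figure D3:**
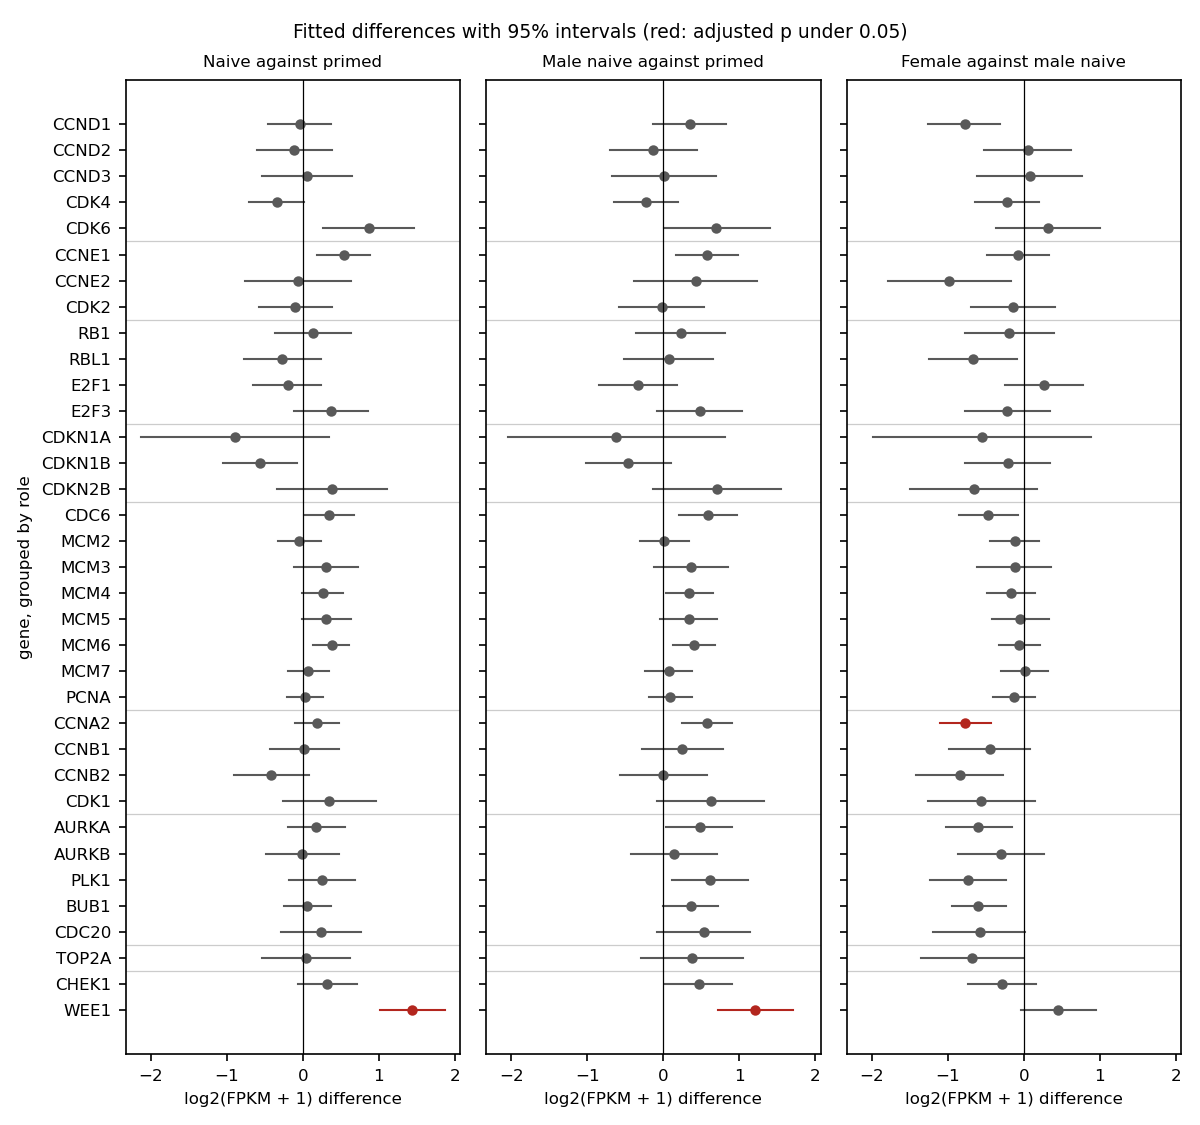
Fitted log2(FPKM + 1) differences of the 35 genes with 95% intervals in 3 comparisons: naive against primed, male naive against primed and female against male naive. Red marks genes with an adjusted p under 0.05, which are WEE1 in the first and second comparisons and CCNA2 in the third; all genes from CCNA2 to TOP2A lie left of 0 in the third.

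The G2 and mitosis genes, 10 in all, gave 0 calls in naive against primed lines and 0 at an unadjusted p under 0.05. CCNB1, cyclin B1, the partner of CDK1 in mitosis, had 173 and 194, then 145 and 124, then 124 and 191 FPKM. Primed 1 was level with the lowest naive value and primed 2 nearly the highest, and the difference was 0.02 (95% interval -0.43 to 0.48). CCNB2 had 66 and 63.4, then 36.8 and 34.5, then 50 and 83 FPKM, and CDK1 had 93.5 and 80.6, then 66.8 and 51.5, then 41.4 and 75.2. In both, primed 2 stood well above primed 1. CCNA2, cyclin A2, which acts in S phase and at entry to mitosis, had 103 and 110, then 66.2 and 58.2, then 65.8 and 76.3 FPKM.

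Among the mitotic kinases, AURKA, which builds the spindle poles, had 46.5 and 45.7, then 34.4 and 26.4, then 29.8 and 36.1 FPKM. AURKB, the kinase of the chromosomal passenger complex, had 81.8 and 82.2, then 68.8 and 64.3, then 57.7 and 95.3. PLK1, which promotes entry into and exit from mitosis and whose row is of uncertain identity, had 124 and 105, then 66.4 and 70, then 60.5 and 89.8. In each of these 3 the male naive pair lay above the female naive pair, and primed 2 lay above primed 1. BUB1, a kinase of the spindle checkpoint, had 86.9 and 89.6, then 62.3 and 54.1, then 62.4 and 75.6 FPKM. CDC20, the activator of the anaphase-promoting complex that this checkpoint restrains, had 164 and 190, then 125 and 111, then 93.9 and 159. TOP2A, the topoisomerase that untangles sister chromatids, had 170 and 158, then 123 and 84.7, then 97.9 and 162. The same 2 orders held in all 3.

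The female naive lines had lower values than the male naive lines across this G2 and mitosis group. All 10 genes had both female libraries below both male ones, where 37.6% of all rows did, and the median difference was -0.60 against -0.10 over all rows. At an unadjusted p under 0.05, 6 of the 10 passed, against 15% of all rows that were lower at that level. One was called: CCNA2 (ENSMMUG00000009817, chromosome 5, 114185343 to 114191798 in the files' coordinates) fell by 0.77 ± 0.14 (SE, 95% interval of the difference -1.10 to -0.43, limma adjusted p = 0.0429), a 1.70-fold lower level. The largest of the other differences were -0.84 for CCNB2 and -0.73 for PLK1 (limma adjusted p = 0.115 for each). The primed libraries enter this comparison only through the shared estimate of the spread. With the naive groups alone, CCNB2 and CCND1 were also called (limma adjusted p = 0.0328 and 0.0316). The 10 differences were also negative under upper-quartile scaling, median-of-ratios scaling and quantile normalization, with medians of -0.47, -0.45 and -0.46. The CCNA2 call was lost under each of the 3 scalings (limma adjusted p from 0.0735 to 0.0835) and without any 1 of the 4 naive libraries (0.121 to 0.233). CCNE2 had the largest difference of the 35, -0.98 (limma adjusted p = 0.168), with 21.6 and 18.2 effective fragments behind its male values. With 1 library left out, the CCNE2 difference ranged from -1.31 to -0.65. Over the 35 genes, 1 was called, where 3.31% of all rows were (0.76% higher and 2.55% lower). Of the 35, 10 passed at an unadjusted p under 0.05, all lower, where 21.7% of all rows passed in either direction and 15% were lower. A negative difference was seen in 29 of the 35 (24, 22 and 25 under the 3 scalings), with a median of -0.22 (-0.10, -0.08 and -0.10, and -0.38 without female naive 1), and 23 had both female libraries below both male ones. WEE1 was the 1 gene with both above, where 19.4% of all rows were. CDKN2B, which passed the filter only through the male naive libraries, is among the 29 and the 23 and adds no evidence to them. Cell type markers also moved in this comparison: 3 of 5 neural markers were called lower (median -1.88), 3 of 11 pluripotency markers higher (median 0.74), 1 of 4 mesoderm markers higher (median -0.87) and 1 of 11 fibroblast markers lower (median 0.14). Their part in the result was not tested. The part of sex, of the shallower male libraries and of the cultures themselves in these differences cannot be told apart. In bulk RNA, fewer cells in a phase and less RNA per cell cannot be told apart either.

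In male naive against primed lines, the same 10 genes had positive differences, with a median of 0.43 against 0.09 over all rows. The number positive was 8 with upper-quartile scaling, 9 with median-of-ratios scaling and 7 with quantile normalization, with medians of 0.26, 0.32 and 0.21. It was 7 without primed 1 (median 0.18) and 10 without primed 2 (median 0.65). Of the 10, 0 were called and 3 passed at an unadjusted p under 0.05 (AURKA, CCNA2 and PLK1), where 16.6% of all rows were higher at that level. CCNA2 differed by 0.58 ± 0.14 (SE, limma adjusted p = 0.067) and PLK1 by 0.62 ± 0.21 (SE, limma adjusted p = 0.13). Of all 35 genes, 1 was called, WEE1, where 5.39% of all rows were called (3.97% higher and 1.42% lower). At an unadjusted p under 0.05, 10 passed, all higher, where 25.7% of all rows passed in either direction and 16.6% were higher. A positive difference was seen in 29 (22, 23 and 22 under the 3 scalings), and the median was 0.35 (0.18, 0.23 and 0.11 under the scalings, and 0.22 without primed 1). The male naive values lay above both primed ones for 19 of 35 genes and below them for 2. The shares over all rows were 34.8% and 21.6%. CDKN2B, which passed the filter only through the male naive libraries, is among the 19 and the 29 and adds no evidence to them. Without primed 2, CDC20 and PLK1 were also called. This comparison shares its primed libraries with naive against primed and its male naive libraries with female against male naive.

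The 2 primed lines differed from each other in their mitosis genes. Primed 2 exceeded primed 1 in 10 of 10 G2 and mitosis genes, by a median of 0.66 (range 0.21 to 0.85), and in 28 of 34 other mitosis genes, by a median of 0.33. Of the 8 replication genes 1 was higher in primed 2 (median -0.22), and of the other G1 genes 5 of 21 were higher (median -0.28). The larger replication lists lay closer to 0, with 5 of 19 origin genes (median -0.06) and 10 of 28 fork genes (median -0.08) higher in primed 2. Over all rows 50.9% were higher in primed 2. These counts were the same for the 10 and the 8 genes under each of the 3 scalings. With 1 library on each side there is no test of this difference.

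The mean log2(FPKM + 1) of the 10 G2 and mitosis genes was 6.69 and 6.68, then 6.18 and 5.97, then 6.01 and 6.57. The mean of the 8 replication genes was 6.99 and 7.04, then 6.84 and 6.91, then 6.85 and 6.63. The G2 and mitosis mean minus the replication mean was -0.30, -0.36, -0.66, -0.94, -0.84 and -0.06. Primed 2 lay above all 4 naive libraries, and primed 1 lay between the 2 female naive ones. Without primed 1, only 2 of the 10 genes had a positive difference in naive against primed lines (median -0.11), without primed 2 it was 9 (median 0.34), and without both male naive libraries it was 1 (median -0.17), against 8 with all libraries (median 0.12). Under the 3 scalings the number positive was 5, 7 and 5 (medians 0.02, 0.08 and -0.02).

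**Figure D4:**
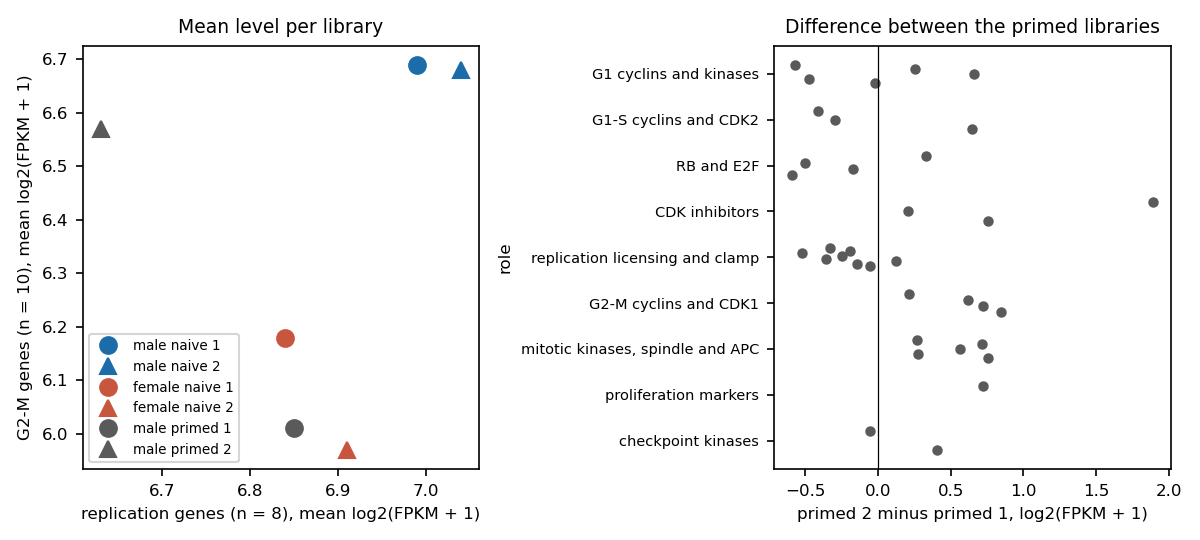
Left, mean log2(FPKM + 1) of the 8 replication genes against that of the 10 G2 and mitosis genes in each library; right, primed 2 minus primed 1 for each of the 35 genes by role. Primed 2 joins the lowest replication mean, 6.63, with a G2 and mitosis mean of 6.57, primed 1 has 6.85 and 6.01, and CDKN1A is the point at 1.88 at right.

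Markers of fibroblasts and feeder cells also differed between the 2 primed lines. Primed 2 exceeded primed 1 in 9 of the 11 tested markers of that list, by a median of 2.35 (range -0.36 to 4.39). VIM, at 642 in primed 1 and 501 FPKM in primed 2, and PDGFRB, at 5.2 and 4.39, were the 2 that were lower. COL1A1, a collagen chain, had 9.24 FPKM in primed 1 and 135 in primed 2, LUM (lumican) had 0.111 and 19.9, and POSTN (periostin) was listed at 0 and had 13. In naive libraries COL1A1 stood between 42 and 153 FPKM, LUM between 0.0739 and 3.85 and POSTN between 0.261 and 5.32. DCN and FAP, which were not tested, are listed at 0 for male naive 1 and 2 and stood at 3.11 and 1.13 FPKM in primed 2, against 0.0467 to 0.763 in primed 1 and the female naive libraries. Other lists were uneven between the primed lines. The endoderm markers had a median of 1.09 with 4 of 6 higher in primed 2, where SOX17 had 5.82 FPKM and is listed at 0 in primed 1, while CDX2, a trophoblast marker here, had 12.7 FPKM in primed 1 and 0.188 in primed 2. The markers given here by name were named after their values were seen. The part of these cells in the levels of CDKN1A and of the mitosis genes in primed 2 was not tested.

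The female naive pair showed a smaller split. Female naive 1 exceeded female naive 2 in 9 of 10 G2 and mitosis genes, by a median of 0.19, and in 3 of 8 replication genes, where 53.7% of all rows were higher in female naive 1. Lineage markers also differed in this pair. Female naive 1 was higher in 5 of 6 endoderm markers (median 1.83), 4 of 4 mesoderm markers (median 0.49) and 3 of 3 trophoblast markers (median 0.82). The median over all rows was 0.03, and the part of these markers in the split was not tested. Male naive 2 exceeded male naive 1 in 5 of the 10, where 49.3% of all rows were higher in male naive 2. Markers differed in the male naive pair too. Male naive 2 was higher in 4 of 4 mesoderm markers (median 0.5) and 3 of 6 endoderm markers (median 0.2). It was higher in 1 of 3 trophoblast markers (median -0.41) and 0 of 11 fibroblast markers (median -0.33).

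The other genes of the cycle, 115 tested in 5 lists, gave 4 calls in naive against primed lines, which is 3.48%, and 25 passed at an unadjusted p under 0.05. Over all rows 11.3% were called and 30.9% passed at that level. Of 21 other genes of G1 and E2F control, 0 rose and 1 fell, E2F2, and 6 passed at an unadjusted p under 0.05. CDK7 and MNAT1, subunits of the kinase that activates CDKs, were among the higher ones. Their differences of 0.60 and 0.66 were not called (limma adjusted p = 0.0655 and 0.07). CCNH, the cyclin subunit of that kinase, had 29.8, 28.9, 28.7, 26.4, 28.1 and 28.8 FPKM, and its groups overlapped. Of 19 genes of origin licensing and firing, 0 were called and 1 passed at an unadjusted p under 0.05. That was CDT1, the licensing factor. CDT1, CDK7, MNAT1 and CCNH are named after their values were seen. CDT1 had 56.4 and 62.8, then 37.7 and 41.5, then 112 and 59.1 FPKM and differed by -0.74 (limma adjusted p = 0.107). Primed 1 was far above the other 5 libraries. Without primed 2 the difference was -1.19 and was called (limma adjusted p = 0.0204).

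Of 28 genes of the replication fork and of nucleotide supply, 1 rose and 1 fell. DUT, the enzyme that keeps uracil out of DNA, had 241 and 255, then 239 and 213, then 152 and 142 FPKM. The groups did not overlap, and the difference was 0.68 ± 0.10 (SE, 95% interval 0.43 to 0.93, limma adjusted p = 0.0174). POLD2, a subunit of DNA polymerase delta, had 66.2 and 68.1, then 59.2 and 58, then 94.6 and 89.6 FPKM. It fell by 0.55 ± 0.10 (SE, limma adjusted p = 0.0262), again without overlap. The median of the list was -0.14, with 20 of 28 negative, and 21 or 22 negative under the 3 scalings.

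Of 34 other mitosis genes, 0 rose and CDC25B fell, and 7 passed at an unadjusted p under 0.05, 6 of them lower. Of 13 genes of the DNA damage checkpoint, 0 were called by limma and 5 passed at an unadjusted p under 0.05, 3 higher and 2 lower. MDM2, a ubiquitin ligase, differed by 0.55 (limma adjusted p = 0.0608) and was named after its values were seen; it was called with a filter of 5 FPKM (limma adjusted p = 0.0497). The calls of DUT and POLD2 were lost without any 1 library other than primed 2 (limma adjusted p from 0.0511 to 0.093). DUT was also the 1 of the 115 called in male naive against primed lines, with a difference of 0.75 (limma adjusted p = 0.026), and the call was lost there without any 1 library (0.0522 to 0.172).

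In female against male naive lines, 4 of the 115 were called, all lower, which is 3.48%, close to the 3.31% of all rows called (2.55% lower). They are named here after their values were seen. CENPF, a kinetochore protein, had 61.8 and 64.6 FPKM in male and 33.1 and 29.5 in female libraries, and fell by 0.99 (limma adjusted p = 0.0237). KIF20A, a kinesin of the late spindle, had 81.6 and 73.4, then 39.4 and 39.3, and fell by 0.96 (limma adjusted p = 0.0353). BUB1B, a spindle checkpoint protein, had 45.2 and 47.4, then 27.5 and 23.3, and fell by 0.85 (limma adjusted p = 0.038). SKP2, the ubiquitin ligase subunit that targets p27, had 67.9 and 84.1, then 35.6 and 42.1, and fell by 0.95 (limma adjusted p = 0.0494). Of the 34 other mitosis genes, 27 had both female libraries below both male ones (37.6% of all rows), and the median was -0.44 (-0.29 to -0.32 under the 3 scalings). All 4 calls were lost without any 1 of the 4 naive libraries (limma adjusted p from 0.0892 to 0.24), and the SKP2 call also without either primed library (0.0541 and 0.0523). The calls of SKP2, BUB1B and KIF20A were also lost under each of the 3 scalings (limma adjusted p from 0.0569 to 0.089), and with no filter on low values (0.0525 to 0.0807).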

How the data were processed

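The authors deposited 1 table per library with an FPKM and its lower and upper FPKM bound for each gene, per the file headers, in the layout of a Cufflinks gene tracking table. Alignment was by TopHat 1.3.0 (per the submitters' processing notes). No source used here gives the build, the annotation, the quantifier version or how fragments shared by near-identical gene copies were assigned. The tables hold no counts. Effective fragments were computed as the square of 2 times the FPKM over the distance from the FPKM to its upper bound. They do not cover the spread between cultures. They did not follow FPKM and depth alone. CDC25C had 288.7 and 48.2 effective fragments in male naive 1 and 2, at 18.1 and 15.5 FPKM. What else enters the bounds besides counting error is not given in the sources used here.

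A row was tested if its FPKM reached 1 in 2 libraries and its status was OK everywhere (10 rows were left out for status alone). The model (limma 3.58.1, R 4.3.3, two-sided) took log2(FPKM + 1), 1 mean for each of 3 groups and a variance trend. This scale understates changes of low genes. Naive against primed is the mean of the 2 naive group means minus the primed mean. No scaling between libraries was added; alternatives were another pseudocount (0.1), other filters (none, or an FPKM of 5), 3 scalings, a replicate block, each library left out, other sets of libraries and sex ignored. The fit was tested on simulated data. Values follow the order naive against primed, male naive against primed and female against male naive. Of 50 rows raised by 1 log2 unit, 23, 12 and 10 were recovered. Of 50 rows lowered by 1 log2 unit, 9, 5 and 7 were recovered. At 2 log2 units, 45, 43 and 40 of 50 raised rows and 39, 30 and 31 of 50 lowered rows were recovered. Most rows moved by 1 log2 unit were thus missed, more often when lowered.

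Groups came from titles and the sex label. Of the 35 identifiers, 30 were in the gene name table and 29 had the same symbol there. Each listed gene was reported by role with its level in every library; from each further list, up to 4 called genes of naive against primed were named. One gene of the further lists is not reported here and is left out of their counts. The genes and lists were chosen with earlier results of these data known.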

Additional observations from a re-analysis of the deposited data

How the results depend on the processing

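No called difference changed direction. WEE1 in naive against primed lines ranged from 1.24 to 1.67 and was lost without primed 1 alone. Leaving out libraries moved the counts most, and the cause was not tested beyond the smaller number of libraries. In naive against primed lines 1548 rows were called; without male naive 1, male naive 2, female naive 1, female naive 2 and primed 1 it was 266, 261, 463, 305 and 177, a range of 177 to 1081 over the 6. The members gave 0 to 2 calls and the 115 other genes 0 to 10. In male naive against primed lines, with 738 rows called by all libraries, the ranges were 51 to 626 rows, 0 to 3 members and 0 to 3 others; in female against male naive lines, with 453, they were 41 to 523 rows, 0 to 3 members and 0 to 4 others. With no filter on low values, more rows were tested and the calls were 941, 400 and 268 in the 3 comparisons; the male naive and the female against male member calls went to 0, and the others of the last to 1. With sex ignored, 250 rows and 1 of the others were called, and without both male naive libraries 625 and 1. A filter of 5 FPKM gave 8 of the others, upper-quartile scaling 7. With the 2 groups alone, male naive against primed gave 348 rows, 0 members and 0 others, and female against male naive 3 members (CCNA2, CCNB2 and CCND1). In female against male naive lines each of the 3 scalings gave 0 members and 1 other; upper-quartile scaling gave 3 others in male naive against primed lines.

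Deviations of same-numbered libraries from their group means correlated at -0.06 (male and female naive), -0.05 (male naive and primed) and -0.263 (female naive and primed). With 2 libraries a group, these values cannot show whether libraries share an origin or a batch, so pairing was not settled. With a replicate block the calls were 812, 373 and 207 of all rows, 1, 1 and 0 members, and 2, 0 and 0 others.

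Scaling moved the split of higher and lower calls: naive against primed from 920 and 628 to 693 and 878 with upper-quartile scaling; male naive against primed from 543 and 195 to 391 and 357, 418 and 255, and 399 and 294 with upper-quartile, median-of-ratios and quantile normalization. In female against male naive lines the 104 and 349 became 106 and 219, 114 and 219, and 118 and 223. It also moved the median of all rows from 0.09 to -0.06, -0.01 and -0.02 within males and from -0.10 to 0.01, 0.03 and 0.01 between the naive groups.

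Signs in naive against primed lines were checked for the 35 members and for some genes of the further lists. Those were E2F2, POLD2, DUT, CDC25B, CDC25A, CDC25C, PKMYT1, CDK7, MNAT1, CDT1 and MDM2. The sign of an uncalled difference turned in 20 of the genes checked. Upper-quartile scaling gave CDC25C -0.07, CCND3 -0.04, MCM7 -0.03, PCNA -0.08, CCNB1 -0.08, BUB1 -0.04 and TOP2A -0.07, median-of-ratios CDC25C -0.01, PCNA -0.01 and CCNB1 -0.01, and quantile normalization CDC25C -0.01, MCM7 -0.12, PCNA -0.23, CCNB1 -0.16, BUB1 -0.08 and TOP2A -0.13. Without both male naive libraries they were CDC25C -0.07, PCNA -0.04, CCNA2 -0.19, CCNB1 -0.20, AURKA -0.12, PLK1 -0.11, BUB1 -0.24, CDC20 -0.06 and TOP2A -0.30. With 1 library left out the ranges were CDC25C -0.10 to 0.15, CCND3 -0.28 to 0.39, CCNE2 -0.22 to 0.11, CCNB1 -0.28 to 0.33, CCND2 -0.27 to 0.06, RB1 -0.03 to 0.30, PCNA -0.01 to 0.07, TOP2A -0.32 to 0.40, AURKB -0.36 to 0.35, CCND1 -0.33 to 0.24, MCM2 -0.15 to 0.05, CDK1 -0.07 to 0.77, PLK1 -0.03 to 0.54, BUB1 -0.08 to 0.20, CDC20 -0.14 to 0.61, CDK2 -0.42 to 0.23 and CDKN1A -1.83 to 0.05. Few effective fragments limit CDKN2B, E2F2, CDK6, CCNE2, CDK2 and CCND3 in the male naive libraries, and E2F3 in male naive 1 (33.9 effective fragments). CCND3 had 37.1 and 26.1 effective fragments in male naive 1 and 2.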
